A study of Oryza sativa with 24 samples.

Results

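The regions described here are the peaks whose midpoint lay within 1 Mb of an end of rice chromosomes 1, 2, 5, 6, 7, 8 and 9. The start of a chromosome was taken as position 1 and its terminal end as the largest peak end in any list. These 14 ends held 17278 of the 250029 peaks on the 7 chromosomes, or 6.91%, on 6.32% of their length, and 4.21% of the 410072 peaks of all lists. They were set against the other 207.6 Mb of the same chromosomes, and against the band 1 to 5 Mb from an end where that comparison gave another answer.

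The study profiled shoots of rice seedlings at the 4-leaf stage, grown for 4 weeks, in 4 lines. The reciprocal F1 hybrids are named Nipponbare/93-11 and 93-11/Nipponbare, and the labels do not say which name is the seed parent. Their parents are the japonica cultivar Nipponbare and the indica cultivar 93-11. No line carried a treatment or a transgene, and each list comes from 1 library of H3K4me3, H3K9ac, H3K27me3 or DNA methylation, so there is no replicate error.

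H3K4me3 and H3K9ac are histone marks of active promoters, and H3K27me3 is set by Polycomb complexes at genes held silent. DNA methylation in plants lies mostly on transposons and other repeats, and in the bodies of many genes. In rice the outer parts of the chromosome arms are known to be richer in genes, and the regions around centromeres richer in repeats. Telomere repeats cap each end, and in japonica rice the genes for the large ribosomal RNAs lie at the short-arm end of chromosome 9, where position 1 of a rice chromosome stands by convention.

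Marks of active promoters were listed more densely near the ends than elsewhere in all 4 lines. H3K4me3 had 103 peaks per Mb near the ends against 83.9 elsewhere in Nipponbare/93-11, and 101.2 against 81.2 in 93-11/Nipponbare. It had 96.1 per Mb near the ends against 77.3 elsewhere in Nipponbare, and 96.5 against 75.5 in 93-11. These counts come from 1442, 1417, 1345 and 1351 end peaks in the same order of lines, and the exact Poisson 95% interval of the Nipponbare end density was 91.0 to 101.3 per Mb. The ratio of end density to density elsewhere was 1.23 and 1.25 in the hybrids, 1.24 (1.18 to 1.31) in Nipponbare and 1.28 in 93-11. Intervals here and below cover counting error only, since the reads behind a list are unknown, and a peak's position says nothing about its height.

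H3K9ac, the acetylation that accompanies H3K4me3 at active promoters, had ratios of 1.17, 1.17, 1.17 and 1.20 in Nipponbare/93-11, 93-11/Nipponbare, Nipponbare and 93-11. Its lists held 1433, 1360, 1353 and 1337 end peaks. For H3K27me3 the ends held 827, 831, 734 and 783 peaks, and the ratios were 1.05, 1.06, 1.10 and 1.08. The intervals of the H3K27me3 ratios reached from 0.982 in Nipponbare/93-11 and 0.988 in 93-11/Nipponbare, so the excess was within counting error in the hybrids.

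DNA methylation went the other way. Its lists had 60.4 peaks per Mb near the ends against 65.5 elsewhere in Nipponbare/93-11, and 56.7 against 66.9 in 93-11/Nipponbare. They had 47.1 per Mb near the ends against 65.6 elsewhere in Nipponbare, and 54.8 against 60.6 in 93-11. The ratios were 0.921, 0.848, 0.718 (0.663 to 0.776) and 0.904 in the same order, and Nipponbare had the lowest of the 4 beyond the counting intervals of the other lines.

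Most of this contrast was with the interior of the chromosomes and not with the neighbouring band. Against positions 1 to 5 Mb from an end, the H3K4me3 ratio lay between 0.996 and 1.01 over the 4 lines, and the H3K9ac ratio between 0.964 and 0.980, all with intervals that held 1. H3K27me3 was listed less densely near the ends than in that band, with ratios of 0.907, 0.911, 0.956 and 0.924 in Nipponbare/93-11, 93-11/Nipponbare, Nipponbare and 93-11. Only the Nipponbare interval, 0.881 to 1.04, held 1. For DNA methylation the ratio to the band was 1.03, 0.979, 0.909 (0.834 to 0.990) and 1.004, so Nipponbare was the one line whose interval lay below 1.

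**Figure D1:**
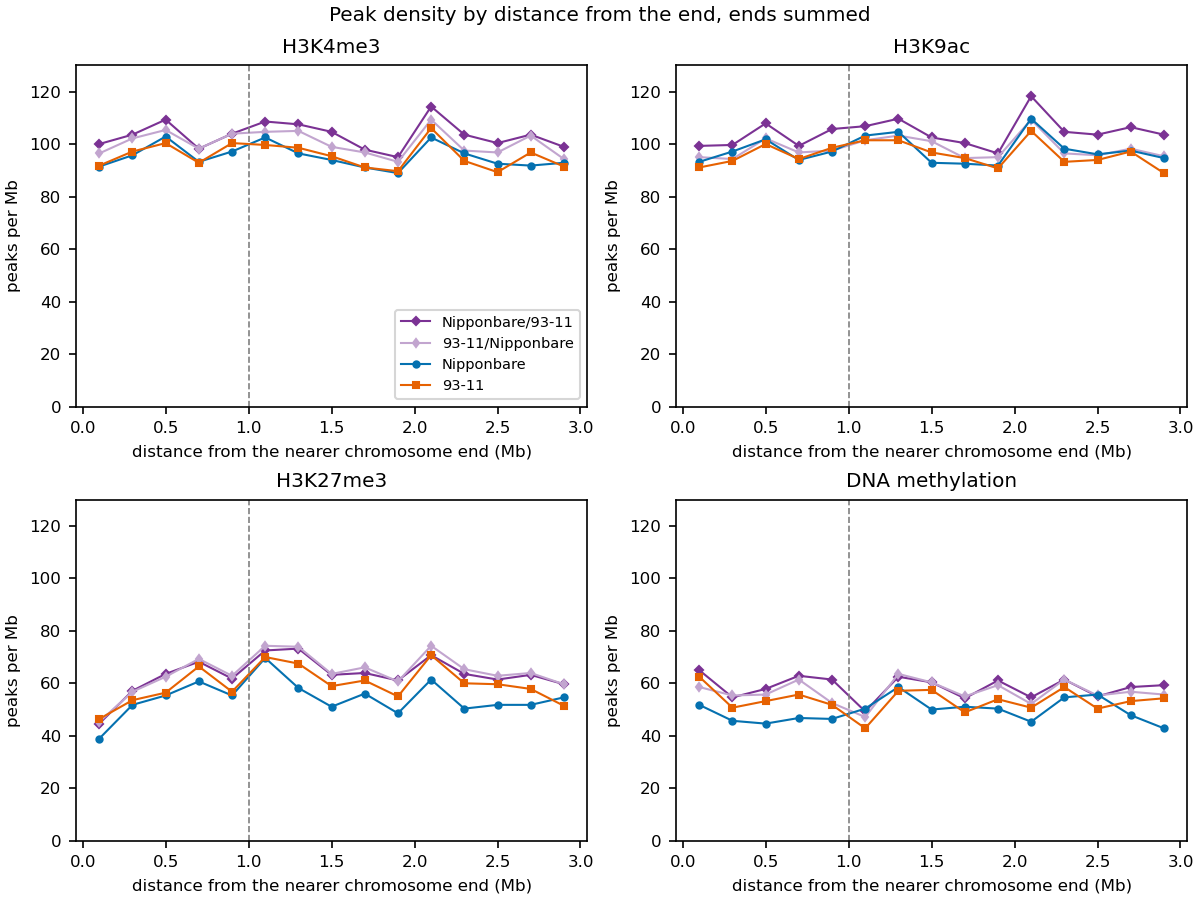
Peaks per Mb (vertical axis) in steps of 200 kb from the nearer chromosome end (horizontal axis, Mb), summed over the 14 ends, with 1 panel per mark and 1 line per rice line; the dashed line marks 1 Mb. H3K27me3 is lowest in the first step in all 4 lines, and the Nipponbare DNA methylation points lie below those of the other lines in each of the 5 steps inside 1 Mb.

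Within the outermost 1 Mb the densities of H3K4me3 and H3K27me3 were compared by distance. In the outermost 100 kb H3K4me3 had 86.4, 84.3, 79.3 and 76.4 peaks per Mb in Nipponbare/93-11, 93-11/Nipponbare, Nipponbare and 93-11, against 109, 107.4, 100.3 and 101.4 at 250 to 500 kb. The Poisson intervals of the 2 distances overlapped in each line, since the outermost 100 kb held only 107 to 121 H3K4me3 peaks per list. The chromosome 9 start lowered both values, and without it the 100 kb densities were 93.1, 90.0, 85.4 and 82.3 per Mb.

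H3K27me3 was also sparser close to the end. Its density in the outermost 100 kb was 41.4, 39.3, 35.0 and 39.3 peaks per Mb in Nipponbare/93-11, 93-11/Nipponbare, Nipponbare and 93-11. At 500 to 750 kb it was 70.9, 72.0, 64.0 and 66.0 per Mb. Without the chromosome 9 start the values of the outermost 100 kb were 44.6, 42.3, 37.7 and 42.3 per Mb. Those at 500 to 750 kb were 74.8, 75.7, 68.0 and 69.8 per Mb, so the change was of like size. The zone limit itself cut through no step in the active marks: over the 4 lists, H3K4me3 had 540 peaks in the 100 kb just inside 1 Mb and 559 just outside, and H3K9ac 547 and 568. H3K27me3 had 307 inside and 393 outside, and DNA methylation 272 and 264.

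End peaks of the histone marks were slightly wider than peaks elsewhere. The median H3K4me3 width was 1439 bp near the ends against 1371 bp elsewhere in Nipponbare/93-11, 1571 against 1483 bp in 93-11/Nipponbare, 1429 against 1352 bp in Nipponbare and 1474 against 1400 bp in 93-11. H3K9ac medians were 50 to 58 bp wider near the ends and H3K27me3 medians 20.5 to 64 bp wider. DNA methylation peaks were narrower there, with medians lower by 130, 87.5, 46 and 76 bp in Nipponbare/93-11, 93-11/Nipponbare, Nipponbare and 93-11. Against the band 1 to 5 Mb from an end the histone marks kept their direction, while DNA methylation medians were lower by 12.5 bp near the ends in Nipponbare/93-11 and 31.5, 28 and 19 bp higher in 93-11/Nipponbare, Nipponbare and 93-11. Peaks covered 14.6% of the end sequence in the Nipponbare H3K4me3 list, against 11.2% elsewhere, and 7.70% in its DNA methylation list, against 11.7% elsewhere.

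The widest H3K4me3 region present in all 4 lines lay on chromosome 8 from 28131042 to 28137615, 172 kb from the terminal end, and was 6573 bp wide. Its peak was the widest of the whole list in Nipponbare/93-11 (6516 bp) and in 93-11 (6229 bp), and it ranked second in 93-11/Nipponbare (6560 bp). In Nipponbare the region held 2 peaks, of 3137 and 2991 bp, and the widest end peak of that list lay on chromosome 5 (4909 bp). All 4 lines also listed H3K9ac and H3K27me3 there, and none listed DNA methylation. The next widest, on chromosome 7 from 28847299 to 28852548, carried H3K27me3 in all 4 lines, and H3K9ac in both hybrids and Nipponbare but not in 93-11.

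A single peak exceeded these. The widest H3K4me3 peak of 93-11/Nipponbare ran from 3 to 36957 on chromosome 9, 36954 bp in all, and no other line or mark had a peak in it. With that peak the list covered 17.3% of the end sequence and without it 17.1%.

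The ends differed among themselves, and 1 end stood apart in the histone marks. The chromosome 9 start held 44, 43, 39 and 38 H3K4me3 peaks in Nipponbare/93-11, 93-11/Nipponbare, Nipponbare and 93-11. The next lowest end in each line held 92, 91, 85 and 83. The chromosome 5 start held most in every line, with 118, 122, 113 and 119 peaks. At 13 of the 14 ends the H3K4me3 count was above the median of the interior 1 Mb windows of the same chromosome in all 4 lines, and the exception was the chromosome 9 start.

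**Figure D2:**
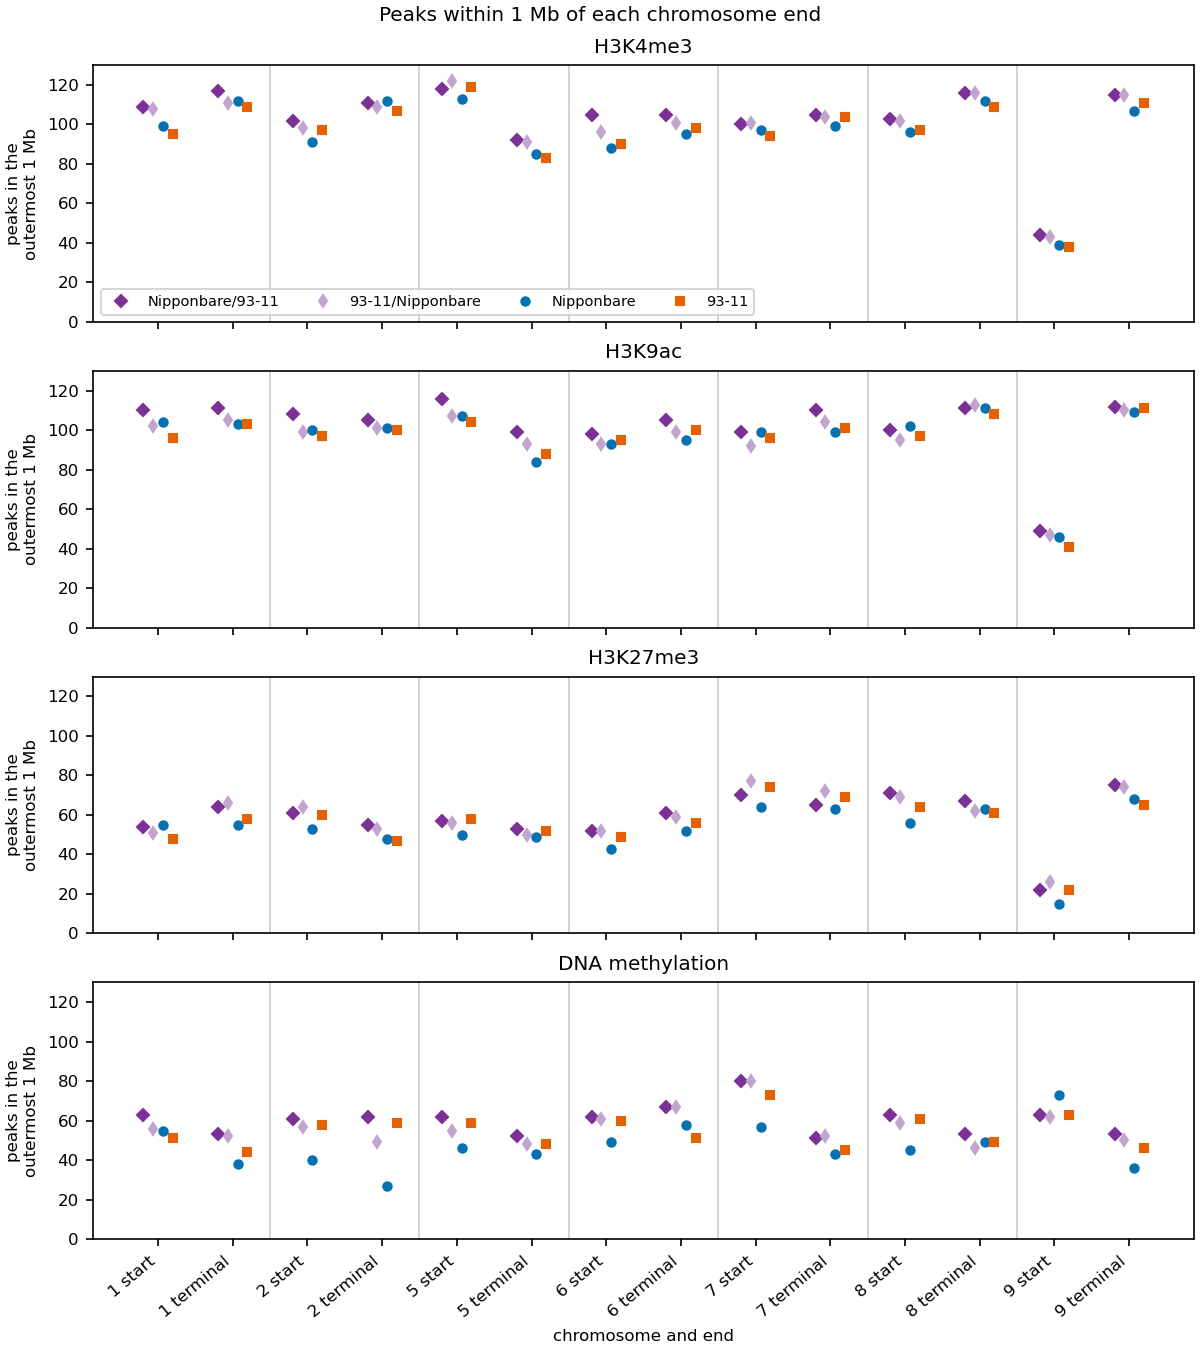
Peaks within 1 Mb (vertical axis) of each of the 14 chromosome ends (horizontal axis, chromosome and end), with 1 panel per mark and 1 symbol per rice line. The chromosome 9 start has 38 to 49 H3K4me3 and H3K9ac peaks where other ends have at least 83, and Nipponbare has 27 DNA methylation peaks at the chromosome 2 terminal end where the other lines have 49 to 62.

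H3K9ac and H3K27me3 followed at the same end. The chromosome 9 start held 49, 47, 46 and 41 H3K9ac peaks in Nipponbare/93-11, 93-11/Nipponbare, Nipponbare and 93-11, and the next lowest end 98, 92, 84 and 88. It held 22, 26, 15 and 22 H3K27me3 peaks, and the next lowest end 52, 50, 43 and 47. The most H3K9ac peaks lay at the chromosome 5 start in Nipponbare/93-11 (116), the chromosome 8 terminal end in 93-11/Nipponbare (113) and Nipponbare (111), and the chromosome 9 terminal end in 93-11 (111). For H3K27me3 the highest end was the chromosome 9 terminal end in Nipponbare/93-11 (75) and Nipponbare (68), and the chromosome 7 start in 93-11/Nipponbare (77) and 93-11 (74). Highest and lowest H3K27me3 counts thus fell on the 2 ends of the same chromosome in Nipponbare/93-11 and Nipponbare.

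DNA methylation did not share the low count of the chromosome 9 start, which held 63, 62, 73 and 63 peaks in Nipponbare/93-11, 93-11/Nipponbare, Nipponbare and 93-11. In Nipponbare it was the end with most. In the other lines the chromosome 7 start held most, with 80, 80 and 73 peaks in Nipponbare/93-11, 93-11/Nipponbare and 93-11, against 57 in Nipponbare. The fewest lay at the chromosome 7 terminal end in Nipponbare/93-11 (51), the chromosome 8 terminal end in 93-11/Nipponbare (46), the chromosome 2 terminal end in Nipponbare (27) and the chromosome 1 terminal end in 93-11 (44).

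Peaks were also divided unevenly between the first and the last ends of the chromosomes. The 7 terminal ends held 761, 747, 722 and 721 H3K4me3 peaks in Nipponbare/93-11, 93-11/Nipponbare, Nipponbare and 93-11, and the 7 starts 681, 670, 623 and 630. Without the chromosome 9 start the starts had 106.2, 104.5, 97.3 and 98.7 peaks per Mb, against 108.7, 106.7, 103.1 and 103.0 at the terminal ends, so that 1 end carried much of the gap. DNA methylation ran the opposite way, with 391, 364, 294 and 342 peaks at terminal ends and 454, 430, 365 and 425 at starts.

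At the chromosome 9 start the outermost histone peaks lay far inside, except for the 36954 bp H3K4me3 peak of 93-11/Nipponbare that begins at position 3. The first H3K9ac peak began 109.2 to 109.4 kb from position 1 in all 4 lines, and the first H3K4me3 peak at 130.4 kb in Nipponbare/93-11, 130.5 kb in Nipponbare and 113.9 kb in 93-11. DNA methylation peaks began at 39.2 to 54.3 kb. The longest stretch of any end zone without a peak in any list, 43652 bp from 193765 to 237417, lay in this zone, as did the stretch from 372786 to 406647. The other 3 of the 5 longest ran from 333726 to 368246 and from 649182 to 678159 on chromosome 1 and from 35885924 to 35917532 on chromosome 2.

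**Figure D3:**
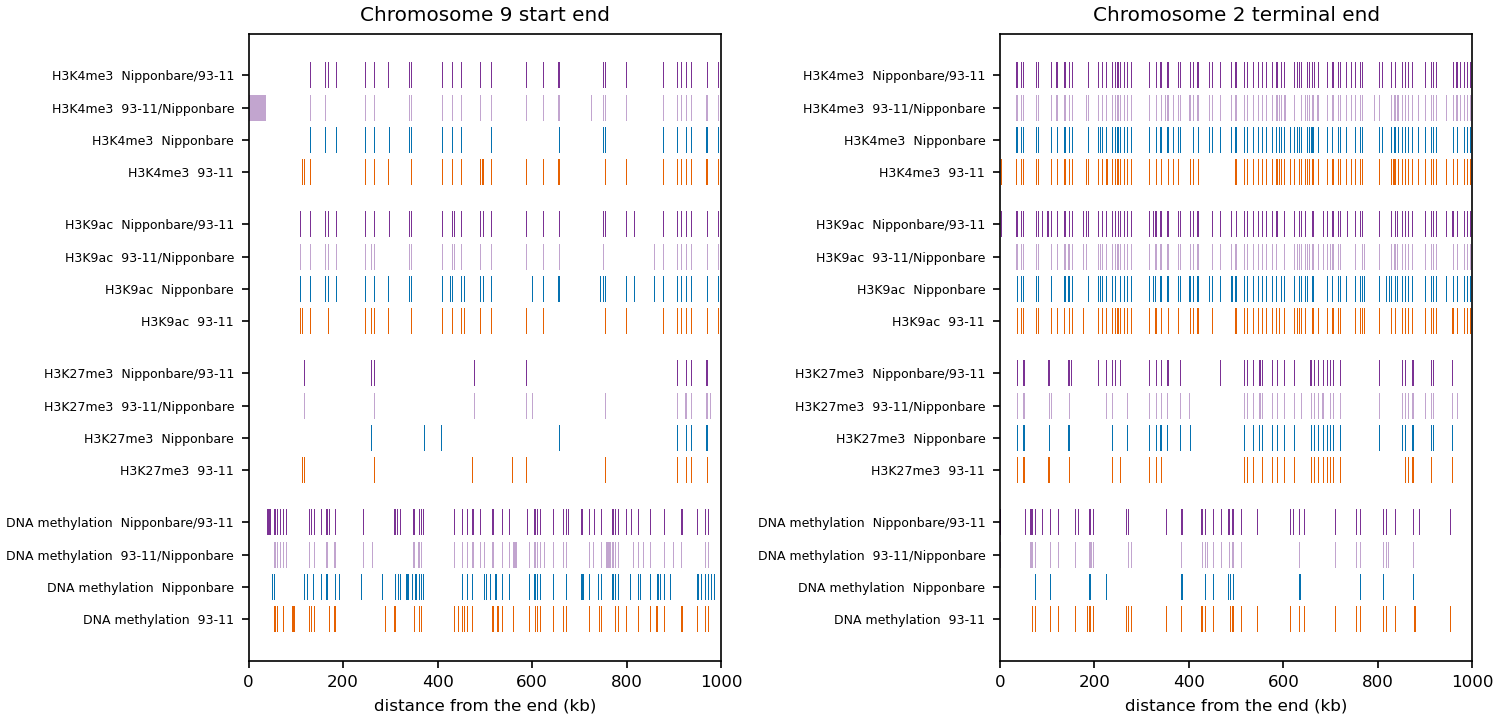
Positions of all peaks (bars) in the outermost 1 Mb of the chromosome 9 start and the chromosome 2 terminal end, as distance from the end in kb (horizontal axis), with 1 row per mark and line. On the left, histone peaks are sparse and begin beyond 100 kb except for the 36954 bp H3K4me3 peak of 93-11/Nipponbare; on the right, the Nipponbare DNA methylation row holds 27 peaks where the 93-11 row holds 59.

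Other ends had marks up to the first bases of the coordinate system. On chromosomes 1 and 2 the first H3K4me3 and H3K9ac peaks began at positions 1 to 14 in all 4 lines. On chromosome 2 H3K27me3 began at position 1 in all 4 lines and DNA methylation at positions 1 to 12. At the terminal ends the outermost peak of chromosomes 1, 6, 7, 8 and 9 was a DNA methylation peak of Nipponbare, so the largest position of those chromosomes was set by that list. The largest position on chromosome 2 came from the DNA methylation list of 93-11/Nipponbare and on chromosome 5 from its H3K9ac list.

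Over the 14 ends the median distance to the first H3K4me3 peak was 10.3, 10.3, 10.4 and 17.1 kb in Nipponbare/93-11, 93-11/Nipponbare, Nipponbare and 93-11. To the first H3K9ac peak it was 10.4, 10.2, 10.4 and 17.0 kb. In 93-11 the first peaks of both marks lay 24.3 and 24.4 kb from the terminal end of chromosome 7, against 5.44 to 5.95 kb in the other 3 lines. At the terminal end of chromosome 6 the first H3K4me3 peak lay at 28.5 kb in 93-11 and at 12.9 to 13.4 kb in the other lines. H3K27me3 began farther in than the active marks, with medians of 33.5, 27.4, 33.7 and 29.6 kb. The medians for DNA methylation were 0.975, 3.90, 0.154 and 6.30 kb, but these peaks themselves set the terminal end of 6 of the 7 chromosomes, so their distances there follow from how the ends were defined and nothing is read from the order. The terminal end of chromosome 9 had its first peaks of all 3 histone marks at 74.8 to 75.4 kb in every line.

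Nipponbare peaks of the active marks near the ends were matched in 93-11 more often than those elsewhere. For 93-11 peaks the difference ran the same way, but the counting intervals of ends and other positions overlapped. Of the 1345 Nipponbare H3K4me3 end peaks, 117 had no overlapping peak in 93-11, a share of 8.70% (Clopper-Pearson 95% interval 7.25 to 10.3), against 12.9% elsewhere on the chromosomes. It was 9.79% at 1 to 5 Mb and 14.5% beyond 5 Mb, so the ends resembled the neighbouring band. Of the 1351 end peaks of 93-11, 126 were not listed in Nipponbare, or 9.33% (7.83 to 11.0), against 11.0% elsewhere, and these intervals overlap. For H3K9ac 11.9% (10.2 to 13.7) of the Nipponbare end peaks were not listed in 93-11, against 16.3% elsewhere. At 1 to 5 Mb it was 13.4% (12.5 to 14.3), an interval that overlapped that of the ends, and beyond 5 Mb 17.7%. Of the 93-11 H3K9ac end peaks 10.6% (9.02 to 12.4) were not listed in Nipponbare, against 12.3% (11.8 to 12.9) elsewhere.

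H3K27me3 differed less between ends and interior. In that mark 20.3% (17.4 to 23.4) of Nipponbare end peaks were not listed in 93-11, against 21.7% elsewhere, and 25.4% of 93-11 end peaks were not listed in Nipponbare, against 27.6% elsewhere. In both cases the counting intervals of ends and other positions overlapped.

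DNA methylation near the ends differed between the parents in both directions, with the larger unmatched share in 93-11, whose end list was also longer. Of the 767 end peaks of 93-11, 380 were not listed in Nipponbare, or 49.5% (45.9 to 53.1), against 40.7% elsewhere, 44.8% at 1 to 5 Mb and 39.5% beyond 5 Mb. Of the 659 end peaks of Nipponbare, 269 were not listed in 93-11, or 40.8% (37.0 to 44.7), against 44.9% elsewhere. The 93-11 share was thus above that of all other positions beyond counting error, while the Nipponbare interval overlapped that of the other positions. At 1 to 5 Mb the 93-11 interval was 43.0 to 46.6, which overlapped that of the ends.

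**Figure D4:**
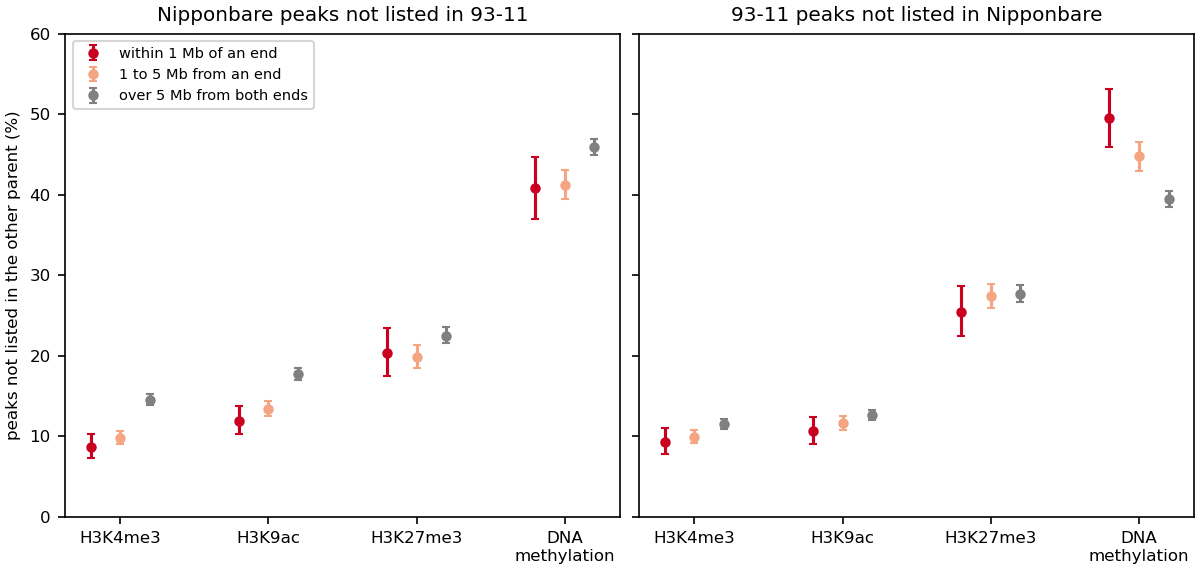
Peaks of Nipponbare not listed in 93-11 (left) and of 93-11 not listed in Nipponbare (right), in percent of the list's peaks (vertical axis), by mark and distance from the end; bars are exact Clopper-Pearson 95% intervals. Among 93-11 DNA methylation peaks the share is 49.5% within 1 Mb of an end, 44.8% at 1 to 5 Mb and 39.5% beyond 5 Mb, while for Nipponbare H3K4me3 it is 8.70%, 9.79% and 14.5%.

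Counts per end and in 1 Mb windows showed that the lower Nipponbare count of DNA methylation peaks reached beyond 1 Mb. Nipponbare had fewer DNA methylation peaks than 93-11 at 10 of the 14 ends, more at 3 and as many at 1, and it was the lowest of the 4 lines at 10 ends. In 1 Mb windows 1 to 5 Mb from an end Nipponbare was lower in 39 of 56, or 69.6%. In windows beyond 5 Mb it was lower in 35 of 148, or 23.6%, and higher in 111. The median window held 45.5 Nipponbare against 54.5 93-11 peaks at the ends, 48.5 against 53.5 at 1 to 5 Mb and 72 against 63.5 beyond 5 Mb. For H3K4me3 Nipponbare was lower at 7 of 14 ends and higher at 7, and lower in 25 and higher in 27 windows of the band. Beyond 5 Mb it was lower in 41 of 148 windows and higher in 91. For H3K9ac Nipponbare was lower at 5 ends and higher at 8, in the band 24 and 29, and beyond 5 Mb 29 and 111. Higher Nipponbare counts in the interior were thus not particular to DNA methylation. H3K27me3 was lower in Nipponbare at 10 of 14 ends, 45 of 56 windows of the band and 100 of 148 interior windows, so this difference was spread along the chromosomes.

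Many of the methylated regions that Nipponbare lacked were listed in both hybrids. Merging the 4 DNA methylation lists gave 1192 end regions, of which 345, or 28.9% (26.4 to 31.6), were listed in all 4 lines, against 30.7% elsewhere. Both hybrids and 93-11, but not Nipponbare, listed 212 end regions, or 17.8% (15.7 to 20.1), against 14.2% at 1 to 5 Mb and 11.5% over all other positions. The mirror set, in both hybrids and Nipponbare but not in 93-11, held 63 regions, or 5.29% (4.08 to 6.71), against 6.75% elsewhere. At 13 of the 14 ends the regions of the 93-11 kind outnumbered those of the Nipponbare kind, and the chromosome 1 start had 10 of each. Nipponbare alone listed 124 end regions, or 10.4% (8.73 to 12.3), against 13.4% elsewhere and 11.1% at 1 to 5 Mb. 93-11 alone listed 79, or 6.63% (5.28 to 8.19), against 5.92% elsewhere.

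Counted by peak, 216 of the 380 93-11-only DNA methylation peaks near ends were listed in both hybrids, or 56.8% (51.7 to 61.9), against 48.2% elsewhere and 50.2% (47.5 to 52.9) at 1 to 5 Mb. Of the 269 Nipponbare-only peaks 67 were, or 24.9% (19.9 to 30.5), against 24.2% elsewhere. H3K4me3 peaks of a single parent were listed in the hybrids more evenly. Both hybrids listed 66 of the 117 Nipponbare-only end peaks, or 56.4% (46.9 to 65.6), against 64.9% (62.9 to 67.0) elsewhere, and 55.6% of the 93-11-only ones, against 59.1% elsewhere. Of the H3K4me3 end peaks of Nipponbare shared with 93-11, 1209 of 1228 were in both hybrids, or 98.5%, against 98.3% elsewhere.

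The 2 hybrids differed from each other less than the parents did. Of the H3K4me3 end peaks, 5.20% of those of Nipponbare/93-11 were not listed in 93-11/Nipponbare, against 6.14% elsewhere, and 3.95% in the other direction, against 3.29%. For H3K9ac the shares were 7.82% against 8.72% elsewhere and, in the other direction, 3.09% against 3.95%. For H3K27me3 they were 13.4% against 12.4% and 14.1% against 12.3%. In all of these the counting intervals of ends and other positions overlapped. For DNA methylation 22.7% (19.9 to 25.7) of the end peaks of Nipponbare/93-11 were not listed in 93-11/Nipponbare, against 20.3% elsewhere. In the other direction 17.9% (15.3 to 20.7) were not listed, against 21.9% (21.2 to 22.6) elsewhere, the one case here where the intervals did not overlap. At 1 to 5 Mb that share was 19.5% (18.2 to 20.9), an interval that overlapped that of the ends, and beyond 5 Mb it was 22.6%.

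The chromosome 2 terminal end, picked here after its counts were seen, had the largest gap between the parents. It held 62, 49, 27 and 59 DNA methylation peaks in Nipponbare/93-11, 93-11/Nipponbare, Nipponbare and 93-11, and all 33 interior 1 Mb windows of that chromosome held more than 27 in Nipponbare. Of its 74 merged regions 22 were in 93-11 and both hybrids but not in Nipponbare, 20 were in all 4 lines and 3 were in both hybrids and Nipponbare but not in 93-11. In steps of 200 kb from the end Nipponbare had 5, 7, 6, 3 and 6 peaks and 93-11 had 14, 13, 11, 9 and 12, so the gap ran through the whole zone. The histone marks did not share it. H3K4me3 had 111, 109, 112 and 107 peaks there, and 100 of its 117 merged regions were in all 4 lines.

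Marks were combined near the ends much as elsewhere, with small shifts. In Nipponbare 91.0% (89.3 to 92.5) of H3K4me3 end peaks overlapped H3K9ac, against 92.4% elsewhere. Conversely H3K9ac end peaks overlapped H3K4me3 more often than other H3K9ac peaks did. The shares were 93.4% near the ends against 89.2% elsewhere in Nipponbare/93-11, 93.8% against 89.0% in 93-11/Nipponbare, 89.9% against 85.9% in Nipponbare and 92.7% against 87.9% in 93-11. H3K9ac peaks without H3K4me3 were thus less frequent at the ends in all 4 lines.

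A smaller share of H3K4me3 peaks overlapped H3K27me3 near the ends. The density of H3K4me3 itself was higher there, and its part in this share was not tested. The share was 47.9% against 52.8% elsewhere in Nipponbare/93-11, 47.1% against 52.3% in 93-11/Nipponbare, 43.5% (40.8 to 46.2) against 46.9% in Nipponbare and 47.0% against 51.2% in 93-11. Only in Nipponbare did the intervals of the ends and of the other positions overlap. At 1 to 5 Mb the share was 51.3%, 50.6%, 44.9% and 49.1% in Nipponbare/93-11, 93-11/Nipponbare, Nipponbare and 93-11, and the intervals overlapped those of the ends in every line. The share was lowest close to the end. At 100 to 250 kb it was 38.2%, 41.6%, 36.2% and 42.7% in Nipponbare/93-11, 93-11/Nipponbare, Nipponbare and 93-11. It was highest at 500 to 750 kb, with 55.7%, 54.3%, 49.9% and 54.6%, and 48.7%, 47.1%, 44.7% and 46.4% from 750 kb to 1 Mb. Shoots hold many cell types, so 2 marks on a region may lie in different cells.

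**Figure D5:**
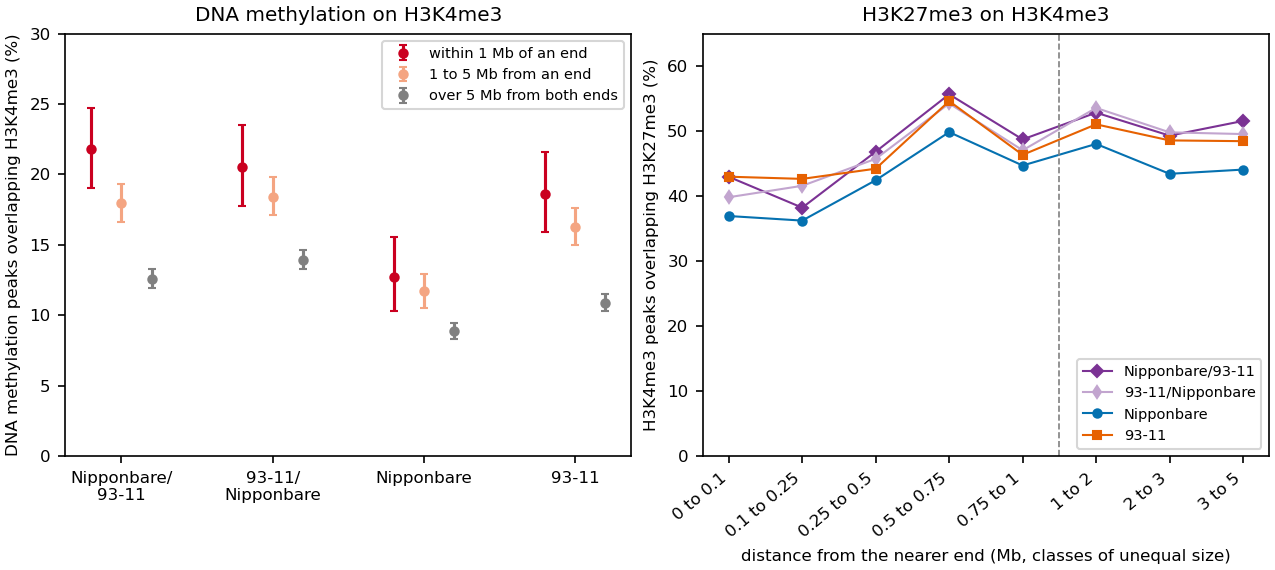
Left, DNA methylation peaks that overlap an H3K4me3 peak of the same line (vertical axis, percent) by line and distance from the end, with exact Clopper-Pearson 95% intervals; right, H3K4me3 peaks that overlap H3K27me3 (percent) by distance from the nearer end in Mb, 1 line per rice line, with 1 Mb dashed. The left panel is highest within 1 Mb of an end in each line, from 12.7% in Nipponbare to 21.8% in Nipponbare/93-11, and the right panel has its lowest values in the outer 250 kb and its highest at 0.5 to 0.75 Mb.

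DNA methylation peaks overlapped H3K4me3 more often near the ends. The share was 21.8% (19.0 to 24.7) against 13.9% elsewhere in Nipponbare/93-11, 20.5% against 15.0% in 93-11/Nipponbare, 12.7% (10.3 to 15.5) against 9.47% in Nipponbare and 18.6% against 12.2% in 93-11. At 1 to 5 Mb it was 17.9% in Nipponbare/93-11 and 16.3% in 93-11, between the share near the ends and that elsewhere. These intervals overlapped those of the ends. The density of H3K4me3 itself was higher near the ends, and its part in this overlap was not tested. Most methylation peaks lay apart from all 3 histone marks, 71.7%, 70.2%, 78.3% and 74.1% near the ends in Nipponbare/93-11, 93-11/Nipponbare, Nipponbare and 93-11, against 77.7%, 76.3%, 83.1% and 80.2% elsewhere. At 1 to 5 Mb the shares were 73.6%, 72.8%, 81.1% and 76.4%, with intervals that overlapped those of the ends in each line.

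Seen from the H3K4me3 side, 6.25% (5.01 to 7.67) of Nipponbare end peaks overlapped DNA methylation, against 8.05% elsewhere, while in Nipponbare/93-11 the share was 12.8% against 10.9%. At 1 to 2, 2 to 3 and 3 to 5 Mb the Nipponbare share was 6.65%, 6.23% and 6.35%, all within the interval of the ends. In Nipponbare/93-11 it was 10.4%, 11.7% and 9.26%. Under a rule of 50% overlap of both peaks the Nipponbare order turned, with 1.26% near the ends against 0.586% elsewhere. The regions methylated in 93-11 and both hybrids but not in Nipponbare overlapped H3K4me3 listed in all 4 lines in 51 of 212 cases, or 24.1% (18.5 to 30.4), against 16.3% elsewhere and 22.1% at 1 to 5 Mb. For the mirror set it was 6 of 63, or 9.52%, against 7.45% elsewhere.

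Among single regions, lines and marks were combined in several ways. Among H3K27me3 regions in all 4 lines the widest, on chromosome 5 from 29593382 to 29599219, carried H3K4me3 in both hybrids and Nipponbare but not in 93-11. The next, on chromosome 7 from 362588 to 367929, carried neither H3K4me3 nor H3K9ac in any line, and Nipponbare alone listed DNA methylation there. The widest H3K27me3 regions of both hybrids and Nipponbare lay on chromosome 8 from 28244760 to 28248962 and on chromosome 1 from 43272286 to 43276138. Those of both hybrids and 93-11, on chromosome 6 from 30518386 to 30522754 and chromosome 1 from 43520435 to 43524497, carried both active marks in all 4 lines.

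Several regions listed for 1 mark in only some lines carried another mark in all. The H3K9ac regions of both hybrids and Nipponbare on chromosome 7, from 28847220 to 28853515 and from 29380868 to 29385328, had H3K4me3 in all 4 lines. So did the H3K9ac regions of both hybrids and 93-11, on chromosome 2 from 636757 to 640779 and on chromosome 1 from 53267 to 57064. The widest H3K4me3 regions of both hybrids and Nipponbare lay on chromosome 5 from 29595745 to 29599070 and on chromosome 9 from 22323549 to 22326555. Their counterparts in both hybrids and 93-11 lay on chromosome 7 from 29557847 to 29561427 and on chromosome 2 from 936693 to 940122, the last with H3K9ac in all 4 lines.

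Regions listed in both hybrids but in neither parent were about as frequent near the ends as elsewhere. There were 22 for H3K4me3, 19 for H3K9ac, 33 for H3K27me3 and 29 for DNA methylation. Their shares of the merged end regions were 1.43%, 1.22%, 3.13% and 2.43%, against 1.32%, 1.49%, 3.51% and 2.75% elsewhere. The widest H3K27me3 region listed in both hybrids but in neither parent was 5502 bp on chromosome 5 from 939360 to 944862, with no other mark in any line. The widest DNA methylation region of that kind was 7236 bp on chromosome 7 from 876135 to 883371, also without a histone mark. For H3K9ac it was chromosome 8 from 28244659 to 28248822, where all 4 lines listed H3K4me3, and for H3K4me3 chromosome 9 from 22222445 to 22224595, with no other mark. The widest regions of both parents that neither hybrid listed were chromosome 1 from 495361 to 496779 for H3K4me3, chromosome 1 from 838732 to 840839 for H3K9ac, chromosome 7 from 29557772 to 29562370 for H3K27me3 and chromosome 9 from 862967 to 867733 for DNA methylation. The chromosome 7 region lay over the H3K4me3 region of both hybrids and 93-11 named above. Both parents and neither hybrid listed 2, 11, 12 and 9 end regions for these marks in the same order. These were 0.130%, 0.707%, 1.14% and 0.755% of the merged end regions, against 0.167%, 0.785%, 0.774% and 1.35% elsewhere.

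The widest DNA methylation regions lay outside the histone peaks. The 2 widest in all 4 lines were 11613 bp on chromosome 1 from 38192 to 49805 and 6905 bp on chromosome 2 from 35725320 to 35732225. In both hybrids and 93-11 they were chromosome 1 from 42836180 to 42844662 and chromosome 2 from 35850636 to 35856688, and in both hybrids and Nipponbare chromosome 2 from 138903 to 144444 and chromosome 9 from 22957244 to 22962435. No line listed a histone peak in any of these 6 regions. Most end regions of these kinds, of any width, also lay outside histone peaks. A histone peak of any line overlapped 37.7% of those in all 4 lines. It was 43.4% for those of both hybrids and 93-11, and 30.2% for those of both hybrids and Nipponbare.

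The 117 Nipponbare peaks not listed in 93-11 formed 92 runs of neighbouring peaks, 77 of them of 1 peak, and the 126 of 93-11 formed 108 runs, 93 of them of 1 peak. Runs of 1 peak were 83.7% of the runs near the ends against 78.8% of 1540 runs elsewhere in Nipponbare, and 86.1% against 88.3% of 1505 in 93-11, so the ends did not lie on the same side in both lines. The longest Nipponbare run had 6 peaks over 119 kb of chromosome 5, from 29680012 to 29799015, where the lists held 6, 7, 6 and 1 H3K4me3 peaks in Nipponbare/93-11, 93-11/Nipponbare, Nipponbare and 93-11. A run of 4 peaks on chromosome 1, from 42998330 to 43013280, had 4, 3, 4 and 0 H3K4me3 and 4, 3, 4 and 0 H3K9ac peaks in the same order. Runs of 3 peaks lay on chromosome 9 from 692227 to 751648 and from 298108 to 340994, and on chromosome 1 from 856522 to 908469. The longest 93-11 runs had 3 peaks, on chromosome 9 from 283586 to 301077, chromosome 6 from 949538 to 961730 and chromosome 5 from 476689 to 484422.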

How the data were processed

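The data are 16 peak lists, 1 for each of 4 marks in 4 lines, that the authors deposited as 3 columns without a header (chromosome, start and end, hence positions and no score). Per the labels' protocols, the methylation libraries rest on McrBC, which cleaves methylated DNA, and the histone libraries on immunoprecipitation. What aligner, peak caller, threshold, control library or build they used is not given in the sources used here, and read depth is unknown. A further 8 samples of mRNA and small RNA were not analysed here.

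Positions are as the files give them, and width is end minus start. Overlap of 1 bp counted as shared. Counts have exact Poisson and shares exact Clopper-Pearson 95% intervals for counting error. With 1 library per mark and line no test was made, and p-values are not given. Regions were named by width and presence in the lines, as the outermost peaks, as the longest stretches without a peak and as the longest single-parent runs. The members and lists were chosen with earlier results of these data known.

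Genes were not named, because the annotation at hand is of another assembly (ASM3414082v1). Nipponbare H3K4me3 peaks overlapped its protein-coding genes about as often as given as after shifts of 50 to 200 kb, and its last gene on chromosome 9 ends 4460 kb beyond the largest peak position.

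Alternatives were other zone sizes, reference positions, overlap rules, width limits and chromosomes. Leaving out the chromosome 9 start or the chromosome 2 terminal end was added after seeing the data. Overlap and density routines were tested on simulated data, in Python 3.11.15 with scipy 1.17.1, pandas 2.3.3 and numpy 2.4.6, and plots drawn with matplotlib 3.10.9.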

Additional observations from a re-analysis of the deposited data

Results flagged for a closer look

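Lines of the same kind moved in opposite directions between ends and interior in 5 measures, given here as the share near the ends minus the share elsewhere, in percentage points. None of these differences between lines was tested, since each value comes from 1 library. DNA methylation peaks not listed in the other parent differed by -4.109 in Nipponbare and by 8.795 in 93-11, and only the 93-11 value lay beyond both counting intervals. H3K4me3 peaks overlapping DNA methylation differed by -1.801 in Nipponbare and 0.8111 in 93-11, and by 1.941 in Nipponbare/93-11 and -0.9295 in 93-11/Nipponbare. H3K4me3 peaks not listed in the other hybrid differed by -0.9402 in Nipponbare/93-11 and 0.6614 in 93-11/Nipponbare. DNA methylation peaks not listed in the other hybrid differed by 2.409 in Nipponbare/93-11 and -4.006 in 93-11/Nipponbare.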

How the results depend on the processing

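Each of 11 Nipponbare results was recomputed under alternatives, 174 values in all, of which 149 moved by less than the counting interval, 22 by more and 3 changed direction. All 77 values that left out 1 chromosome were within the interval, and so were all values without the chromosome 9 start or the chromosome 2 terminal end. Against positions 1 to 5 Mb from an end the density ratio was 1.01 for H3K4me3, 0.976 for H3K9ac, 0.956 for H3K27me3 and 0.909 for DNA methylation. H3K9ac and H3K27me3 thus turned, but their intervals, 0.919 to 1.04 and 0.881 to 1.04, held 1. Against positions beyond 5 Mb it was 1.36 for H3K4me3 and 1.26 for H3K9ac. With peaks of at least the median width it was 1.43 and 1.30 for these marks. Within 0.5 Mb H3K27me3 turned to 0.971, from 326 end peaks, and 39.6% of H3K4me3 peaks overlapped H3K27me3. In bp covered the DNA methylation ratio was 0.657. With 50% overlap of both peaks, 11.1% of H3K4me3, 14.04% of H3K9ac and 44.8% of DNA methylation end peaks were not listed in 93-11, and 88.0%, 38.2% and 1.26% of H3K4me3 end peaks overlapped H3K9ac, H3K27me3 and DNA methylation. With both lists at or above their median width, 21.3% of H3K4me3, 24.9% of H3K9ac, 16.9% of H3K27me3 and 45.0% of DNA methylation end peaks were not listed, and the overlaps were 75.6%, 31.0% and 2.47%, as both lists are then shorter. Allowing gaps of 500 bp gave 12.4% with DNA methylation. The order of ends and interior held under each overlap and width rule except for H3K4me3 with DNA methylation at 50% overlap. No paired analysis was possible because each mark and line has 1 library. Depth is unknown, so list length, threshold and depth cannot be told apart.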

Other observations

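The ends of the other 5 nuclear chromosomes (3, 4, 10, 11 and 12) were counted the same way. The ratio of end density to density elsewhere was 1.34, 1.35, 1.35 and 1.35 for H3K4me3 in Nipponbare/93-11, 93-11/Nipponbare, Nipponbare and 93-11. For H3K9ac it was 1.29, 1.27, 1.27 and 1.30, and for H3K27me3 1.15, 1.13, 1.15 and 1.15. DNA methylation had ratios of 1.04, 1.03, 0.924 and 1.01, and the intervals of all lines held 1. The lower density near the ends described above thus did not recur here beyond counting error. The lowest value was again in Nipponbare, although its interval of 0.850 to 1.003 overlapped those of the other lines. Among these 10 ends the chromosome 10 start held 66, 68, 62 and 56 H3K4me3 peaks and the chromosome 11 terminal end 68, 66, 68 and 54, all above the 38 to 44 of the chromosome 9 start.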
